A study of Arabidopsis thaliana with 21 samples.

Results

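The histone genes described here are the 41 genes of the deposited expression table that encode a core histone, a histone variant or a linker histone of Arabidopsis thaliana. They were taken by gene ID from a list of 41, out of 21156 genes in the table, and all 41 had a value in every library. By class they are 8 genes for H4, 5 for H3.1, 3 for H3.3, 10 for H2B, 4 for canonical H2A, 2 for H2A.X, 3 for H2A.W, 3 for H2A.Z and 3 for H1.

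Leaves were cut from F1 hybrid plants (Col-0 × Ler) at 35 days and fed through the petiole, and poly(A) RNA was sequenced. There were 7 groups of 3 libraries, 21 in all. They were LiCl (100 mM); PAP + LiCl (100 µM PAP, 100 mM LiCl); PAP + ATP + LiCl (1 mM ATP with the same doses of both others); ATP (1 mM); PAP + ATP (100 µM and 1 mM); PAP (100 µM); and control leaves given the feeding buffer alone. Every group, control included, received the same buffer of PIPES, citrate, KCl and sucrose through the cut petiole. PAP (3′-phosphoadenosine 5′-phosphate) is a nucleotide that accumulates when its phosphatase SAL1 is inactive and that inhibits the XRN exoribonucleases. Lithium inhibits SAL1, and the study asks about RNA polymerase II read-through in that pathway. No group received ATP and LiCl without PAP, and no group received another salt at the LiCl dose, so lithium and salt cannot be told apart. The PAP dose is the one in the sample labels; another label of the series gives a higher one. The labels do not say how long leaves were fed, nor whether the libraries of a group came from separate plants, so p-values measure the spread between these libraries, which may be technical. Reads counted in genes ranged over the libraries between 19190821 and 27155547, with a median of 23657548, and 1 read was worth 0.0368 to 0.0521 CPM (reads of a gene scaled to the library's total). ATP library 4 and PAP + ATP + LiCl library 20 stood apart, with 0.996% and 0.327% of reads on ribosomal RNA genes, and counts that move by over 1.5 times without them are given both ways.

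Nucleosomes hold DNA on a core of H2A, H2B, H3 and H4, and H1 binds the linker DNA between cores. H3.1 and H4 messages are made mainly in S phase, when the CAF-1 chaperone places their products on newly copied DNA. H3.3 is placed outside replication, largely by the HIRA complex, and H2A.Z is exchanged into nucleosomes by the SWR1 complex. H2A.X carries the phosphorylation that marks DNA breaks, and H2A.W is a plant variant of silent heterochromatin. Plant histone messages carry poly(A) tails, so a poly(A) library holds them. In a grown leaf few cells divide, although some copy their DNA again without dividing. Because whole leaves were sequenced, fewer cells making these messages and less message per cell cannot be told apart in any result below.

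In the TAIR10.1 annotation of RefSeq, the 8 H4 genes encode 1 and the same protein, and so do the 5 H3.1 genes. Their coding sequences were 78.8% to 98.1% identical among the H4 genes and 80.3% to 89.5% identical among the H3.1 genes. How reads shared by such copies were assigned is not given in the sources used here, so values of single copies are less certain than class sums. The shared H3.1 and H3.3 proteins, 136 residues each, differ at 4 residues. Of the H4 genes 7 of 8, and all 5 H3.1 and all 10 H2B genes, have no intron in their coding sequence, whereas no H2A, H2A variant, H3.3 or H1 gene lacks one. The H3.3 genes AT4G40030 and AT4G40040 lie 42 bases apart, and the H3.1 genes AT5G10390 and AT5G10400 lie 577 bases apart. The H2B gene AT5G02570 lies wholly inside the H2A.W gene HTA12 on the other strand, over 522 bases, and HTA3 shares 259 bases with a gene on its other strand. The library kit does not keep strand, so reads of such pairs cannot be told apart by it. AT3G27360 (H3.1) shares 328 bases with a neighbour on its own strand, and HTA13 shares 79 bases with one on the other.

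Plant histone genes are known for short promoter elements, among them the octamer CGCGGATC and the hexamer ACGTCA. The 250 bases before the annotated start were searched for both on either strand, without regard to any other motif they overlap. The octamer was found before 10 of the 41 histone genes (24.39%), against 37 of all 27443 genes (0.13%). It stood before 2 H4, 3 H3.1, 1 H3.3, 2 H2A, 1 H2A.W and 1 H1 genes. The hexamer was found before 11 of 41 histone genes, 8 of them among the 10 H2B genes (80.0%), against 2110 of all genes (7.69%). Letters of E2F sites (TTTCCCGC, TTTGGCGC, TTTCGCGC or TTTGCCGC) were found before 3 of 41, against 387 of all genes (1.41%). The 6 letters CCGTCG were found before 9 of 41, against 782 of all genes (2.85%). None of these was found before an H2A.Z gene. A match is a run of letters and not a measured binding site. Only the RefSeq sequence was searched, so the Ler copies in these hybrid leaves were not read.

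These 7 stretches are shown because they pair an expression result with the presence or absence of these letters. All run 5′ to 3′ on the gene's own strand, are from RefSeq's TAIR10.1 and end at the base before the annotated start. Capitals mark the octamer, the hexamer and CCGTCG, on either strand: GATCCGCG is the octamer read from the other strand. Before AT4G40040 it runs into CGACGG, which is CCGTCG read from the other strand, so their letters overlap there.
AT1G09200 (H3.1, 2 octamers, fell with LiCl), chr1:2972335-2972584, minus strand: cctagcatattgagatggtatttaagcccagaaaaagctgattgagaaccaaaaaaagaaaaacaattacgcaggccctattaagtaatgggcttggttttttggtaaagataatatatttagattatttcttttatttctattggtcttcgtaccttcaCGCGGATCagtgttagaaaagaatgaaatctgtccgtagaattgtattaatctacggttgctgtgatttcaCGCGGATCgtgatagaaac
AT1G07660 (H4, octamer, not past the threshold with LiCl), chr1:2368583-2368832, plus strand: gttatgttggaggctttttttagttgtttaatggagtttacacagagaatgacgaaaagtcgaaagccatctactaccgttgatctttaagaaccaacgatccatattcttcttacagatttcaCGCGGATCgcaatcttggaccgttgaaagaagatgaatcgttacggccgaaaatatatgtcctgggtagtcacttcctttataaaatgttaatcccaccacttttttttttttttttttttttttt
AT3G53730 (H4, lowest of the H4 changes, no match), chr3:19913516-19913765, minus strand: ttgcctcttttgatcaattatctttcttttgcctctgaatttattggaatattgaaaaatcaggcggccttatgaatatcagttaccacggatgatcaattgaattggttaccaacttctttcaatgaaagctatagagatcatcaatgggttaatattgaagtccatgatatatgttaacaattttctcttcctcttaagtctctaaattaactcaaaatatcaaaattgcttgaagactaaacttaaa
AT4G40040 (H3.3, octamer and CCGTCG, not past the threshold with LiCl alone), chr4:18558946-18559195, minus strand: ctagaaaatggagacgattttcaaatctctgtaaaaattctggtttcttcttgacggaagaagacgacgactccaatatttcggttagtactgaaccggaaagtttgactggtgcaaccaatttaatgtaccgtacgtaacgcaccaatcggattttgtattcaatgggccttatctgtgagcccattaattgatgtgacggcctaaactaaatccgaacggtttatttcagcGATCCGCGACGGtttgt
AT3G53650 (H2B, hexamer, fell with LiCl), chr3:19889047-19889296, plus strand: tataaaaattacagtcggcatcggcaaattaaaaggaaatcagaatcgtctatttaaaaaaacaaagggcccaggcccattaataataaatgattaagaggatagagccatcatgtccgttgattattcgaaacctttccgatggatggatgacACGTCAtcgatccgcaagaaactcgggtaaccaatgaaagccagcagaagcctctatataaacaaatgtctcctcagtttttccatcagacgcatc
H1.1 (AT1G06760, octamer and CCGTCG, fell with LiCl), chr1:2077768-2078017, minus strand: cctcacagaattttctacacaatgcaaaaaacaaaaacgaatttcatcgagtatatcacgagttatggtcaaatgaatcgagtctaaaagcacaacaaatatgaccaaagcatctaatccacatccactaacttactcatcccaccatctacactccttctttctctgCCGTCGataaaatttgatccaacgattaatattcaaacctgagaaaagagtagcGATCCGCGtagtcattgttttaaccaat
HTA9 (AT1G52740, H2A.Z, no match, not past the threshold), chr1:19644986-19645235, plus strand: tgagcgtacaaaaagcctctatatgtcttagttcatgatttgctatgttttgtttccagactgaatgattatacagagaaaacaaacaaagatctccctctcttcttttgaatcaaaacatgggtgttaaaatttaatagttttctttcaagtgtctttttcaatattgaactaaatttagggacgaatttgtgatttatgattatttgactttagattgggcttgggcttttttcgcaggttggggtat

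With LiCl, most histone messages fell. LiCl leaves had 671 ± 80.3 CPM over all 41 genes and control leaves 1531 ± 217 CPM (SD, n = 3 each), so LiCl leaves held 43.8% of the control sum. Past an adjusted p of 0.05, 34 of the 41 genes fell and 0 rose, where 10.4% of the 17587 genes tested fell and 7.27% rose (limma on log2(CPM + 0.5), with Benjamini-Hochberg adjustment over all genes). The median log2 change over the 41 was -1.58, against -0.03 over all genes. In 35 of the 41, every LiCl library lay below every control library, as in 19.1% of all genes. The genes that fell were 7 of 8 for H4, 5 of 5 for H3.1, 10 of 10 for H2B, 4 of 4 for H2A, 2 of 2 for H2A.X, 2 of 3 for H2A.W, 3 of 3 for H1, 1 of 3 for H3.3 and 0 of 3 for H2A.Z.

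The comparison of PAP + LiCl with PAP leaves takes its means from 6 other libraries and called the same 34 genes lower. Both comparisons share each gene's estimate of the spread, which comes from all 21 libraries, so their calls are not independent. With PAP + LiCl against PAP the background was 12.0% of genes, and the median log2 change of the 41 was -1.70, against -0.02 over all genes. In 35 of the 41, every PAP + LiCl library lay below every PAP library, as in 21.7% of all genes. The sum over the 41 was 668 ± 25.4 CPM in PAP + LiCl leaves and 1646 ± 234 CPM in PAP leaves. Set against control leaves, 33 fell in PAP + LiCl leaves (background 10.1%) and 28 in PAP + ATP + LiCl leaves (background 11.1%). Without libraries 4 and 20 the 28 were 22, and the share of all genes called in either direction was 9.97%, against 19.7% with them. For LiCl against control, 28 of the 34 calls held with each library left out and under each other processing that tested them. A filter at a mean of 5 CPM tested only 34 of the 41 genes. The 6 that did not always hold were AT2G37470, AT5G59690, H1.3, HTA1, HTA10 and HTA5.

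**Figure D1:**
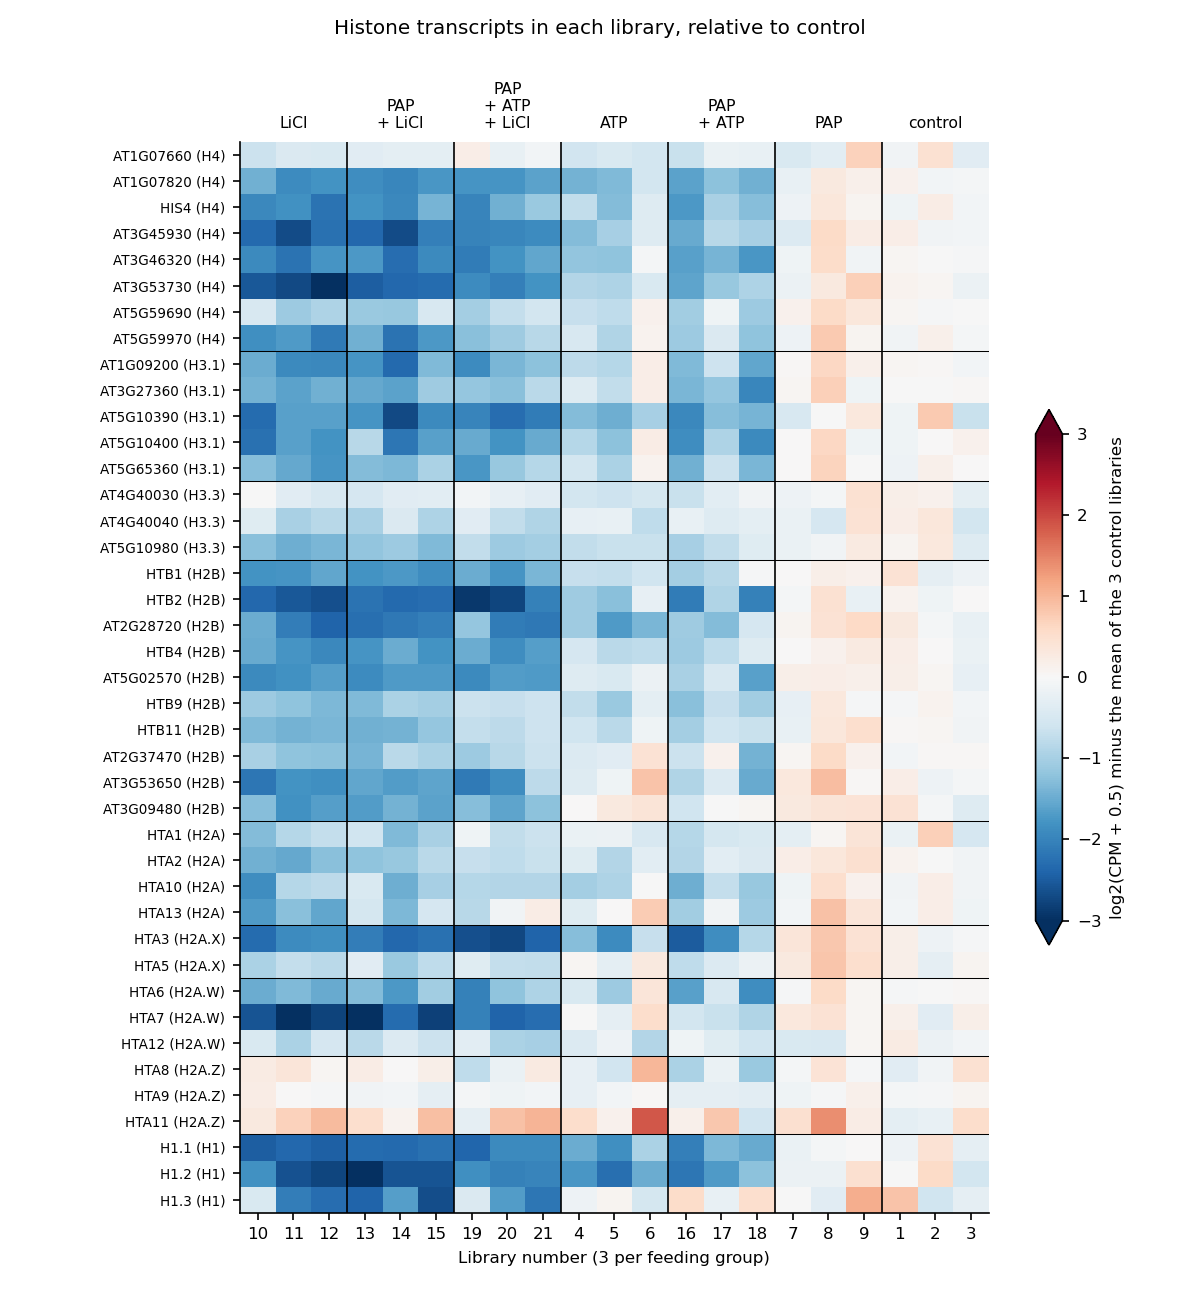
Each row is a histone gene and each column a library; colour is log2(CPM + 0.5) minus the mean of the control libraries. The LiCl and PAP + LiCl columns lie below control in most H4, H3.1, H2B and H1 rows, while the H2A.Z rows show no such fall, and ATP library 6 and PAP library 8 stand above the other libraries of their groups in many rows.

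H4, the most conserved core histone, pairs with H3 in the nucleosome. AT3G53730 had 5.95, 5.27 and 3.72 CPM in LiCl leaves, against 40.1, 39.2 and 33.02 CPM in control leaves. The LiCl libraries lay several fold below every control library, and the log2 change was -2.81 ± 0.23 (adjusted p = 3.48e-06), 7.01-fold lower on that scale. The same gene had 6.28, 6.88 and 7.18 CPM in PAP + LiCl leaves, against 33.04, 46.1 and 61.6 CPM in PAP leaves, a log2 change of -2.66 ± 0.23 (adjusted p = 3.06e-06). AT3G45930 had 1.603, 1.14 and 1.73 CPM in LiCl leaves, against 11.5, 9.22 and 9.51 CPM in control leaves, and changed by -2.42 ± 0.28 (adjusted p = 3.49e-05) on the log2 scale. AT3G45930 and AT3G46320 are close copies whose 250 upstream bases are 98.8% identical, so reads of the pair may be split between them; AT3G46320 changed by -1.96 ± 0.29 (adjusted p = 0.000264). HIS4 had 5.61, 6.06 and 4.48 CPM in LiCl leaves, against 20.6, 26.6 and 21.3 CPM in control leaves, again without overlap (log2 change -1.99 ± 0.27, adjusted p = 0.000142). AT1G07820 and AT5G59970 changed by -1.71 ± 0.21 (adjusted p = 7.24e-05) and -1.88 ± 0.30 (adjusted p = 0.000534). AT5G59690 changed least of the 7 that fell, by -0.83 ± 0.28 (adjusted p = 0.0497). AT1G07660, which is the H4 gene with an intron in its coding sequence, had 11.5, 13.4 and 13.1 CPM in LiCl leaves, against 17.05, 25.1 and 14.2 CPM in control leaves. The LiCl libraries lay just below the control libraries, and the log2 change of -0.52 ± 0.26 (adjusted p = 0.175) did not pass the threshold.

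H3.1, the H3 form placed at replication, was lower in all 5 of its genes. AT1G09200 had 7.97, 5.82 and 5.79 CPM in LiCl leaves, against 24.5, 23.9 and 21.9 CPM in control leaves. The groups were far apart and the log2 change was -1.78 ± 0.32 (adjusted p = 0.00122). AT5G10400 had 4.13, 6.49 and 5.75 CPM in LiCl leaves, against 19.2, 21.2 and 23.3 CPM in control leaves (log2 change -1.88 ± 0.37, adjusted p = 0.0024). Its neighbour AT5G10390 had 3.37, 5.78 and 5.72 CPM in LiCl leaves, against 17.3, 32.9 and 11.7 CPM in control leaves; the control libraries spread widely, without reaching the LiCl libraries, and the change was -1.86 ± 0.34 (adjusted p = 0.00153). AT5G65360 had 10.3, 8.498 and 7.11 CPM in LiCl leaves, against 22.8, 28.4 and 25.8 CPM in control leaves, a log2 change of -1.53 ± 0.29 (adjusted p = 0.00214). AT3G27360 had the lowest level of the 5 per kb of transcript (3.695 CPM per kb in control leaves), with 0.844, 0.669 and 0.827 CPM in LiCl leaves, against 3.05, 3.05 and 3.14 CPM in control leaves (log2 change -1.49 ± 0.28, adjusted p = 0.00197). At such low levels the log2(CPM + 0.5) scale understates a change. The 13 H3.1 and H4 genes summed to 85.2 ± 7.19 CPM in LiCl leaves, 31.9% of the 267 ± 23.4 CPM in control leaves.

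H2B pairs with H2A. Its 10 genes summed to 111 ± 12.6 CPM in LiCl leaves and 356 ± 37.9 CPM in control leaves, and all 10 fell, with log2 changes of -2.51 to -1.14. HTB4 had the highest level of the 10 per kb of transcript, 39.9 CPM per kb in LiCl leaves and 134 in control leaves. By library it had 59.4, 49.8 and 44.8 CPM in LiCl leaves, against 197, 172 and 149 CPM in control leaves. The groups did not come near each other, and the log2 change was -1.74 ± 0.19 (adjusted p = 2.07e-05). HTB2 had 4.39, 3.82 and 3.498 CPM in LiCl leaves, against 26.4, 22.6 and 24.8 CPM in control leaves (log2 change -2.51 ± 0.32, adjusted p = 7.24e-05). HTB1, HTB9 and HTB11 changed by -1.71 ± 0.23 (adjusted p = 0.000126), -1.22 ± 0.21 (adjusted p = 0.000811) and -1.38 ± 0.20 (adjusted p = 0.000262). AT2G28720, AT3G53650 and AT2G37470 changed by -1.99 ± 0.29 (adjusted p = 0.000276), -1.93 ± 0.37 (adjusted p = 0.00201) and -1.14 ± 0.31 (adjusted p = 0.0175). AT5G02570 and AT3G09480 were near the floor in LiCl leaves, so no fold is read from them. AT5G02570 had 0.0422, 0.0787 and 0.1504 CPM in LiCl leaves, which is a few reads, against 1.81, 1.62 and 1.201 CPM in control leaves. AT3G09480 had 0.337, 0.0787 and 0.1504 CPM in LiCl leaves, against 2.24, 1.46 and 1.06 CPM in control leaves. Both passed the threshold, at adjusted p = 0.000182 and 0.000466.

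Among the H2A genes, the 4 canonical ones fell together with moderate changes of -1.50 to -0.96 on the log2 scale. HTA2 had 4.72, 4.33 and 5.42 CPM in LiCl leaves, against 14.8, 13.5 and 12.6 CPM in control leaves (-1.41 ± 0.19, adjusted p = 0.000152). HTA13 changed by -1.50 ± 0.36 (adjusted p = 0.00902), HTA10 by -1.17 ± 0.32 (adjusted p = 0.0195) and HTA1, also known as RAT5 for its part in transformation by Agrobacterium, by -0.96 ± 0.29 (adjusted p = 0.0317). Of the H2A.X pair, HTA3 had 2.36, 3.305 and 3.46 CPM in LiCl leaves, against 15.6, 12.2 and 13.4 CPM in control leaves, a log2 change of -2.01 ± 0.34 (adjusted p = 0.000745). HTA5 had 23.5, 27.8 and 26.1 CPM in LiCl leaves, against 52.1, 38.3 and 48.6 CPM in control leaves, a log2 change of -0.82 ± 0.22 (adjusted p = 0.0175). In both the groups were apart, more widely in HTA3. The H2A.W gene HTA7 had the largest change of the 41, with 1.98, 0.708 and 1.69 CPM in LiCl leaves, against 16.1, 11.2 and 16.5 CPM in control leaves (log2 change -2.99 ± 0.29, adjusted p = 8.5e-06). HTA6 had 8.82, 9.95 and 8.61 CPM in LiCl leaves, against 25.003, 25.5 and 26.3 CPM in control leaves (log2 change -1.44 ± 0.37, adjusted p = 0.0135). HTA12 lay lower in every LiCl library, at 4.89, 3.34 and 4.78 CPM against 8.29, 6.09 and 6.56 CPM in control leaves, yet did not pass the threshold (-0.63 ± 0.25, adjusted p = 0.0909).

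Of the 3 genes for the replication-independent H3.3, 1 passed the threshold, and of the 3 for H2A.Z 0 did. All 3 H3.3 log2 changes were negative, and the H3.3 sum in LiCl leaves was 59.2% of control. The H2A.Z sum was 108% of control. AT5G10980 (H3.3) had 48.1, 41.5 and 44.3 CPM in LiCl leaves, against 121, 143 and 88.4 CPM in control leaves, and fell by a log2 change of -1.36 ± 0.19 (adjusted p = 0.000201). AT4G40040 had 209, 136 and 149.5 CPM in LiCl leaves, against 309, 339 and 185 CPM in control leaves. These groups overlapped, with control library 3 the lowest of its group, and the change of -0.73 ± 0.27 (adjusted p = 0.075) did not pass. AT4G40030 had 104, 82.4 and 75.1 CPM in LiCl leaves, against 119, 115 and 85.2 CPM in control leaves, also overlapping (-0.28 ± 0.19, adjusted p = 0.335). HTA9 is the H2A.Z gene with the highest level in these leaves, 84.9 CPM per kb of transcript in LiCl leaves and 80.4 in control leaves. Its libraries overlapped, with 79.4, 68.8 and 66.4 CPM in LiCl leaves, against 64.9, 66.6 and 71.8 CPM in control leaves, a log2 change of 0.07 ± 0.13 (adjusted p = 0.732). HTA11 had 3.33, 4.603 and 5.604 CPM in LiCl leaves, against 2.05, 2.19 and 4.02 CPM in control leaves (0.65 ± 0.47, adjusted p = 0.361). HTA8 had 1.98, 2.16 and 1.65 CPM in LiCl leaves, against 1.14, 1.42 and 2.36 CPM in control leaves (0.22 ± 0.37, adjusted p = 0.716). For both the LiCl libraries lay within or above the control range, and a p that misses the threshold does not show that they were unchanged.

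**Figure D2:**
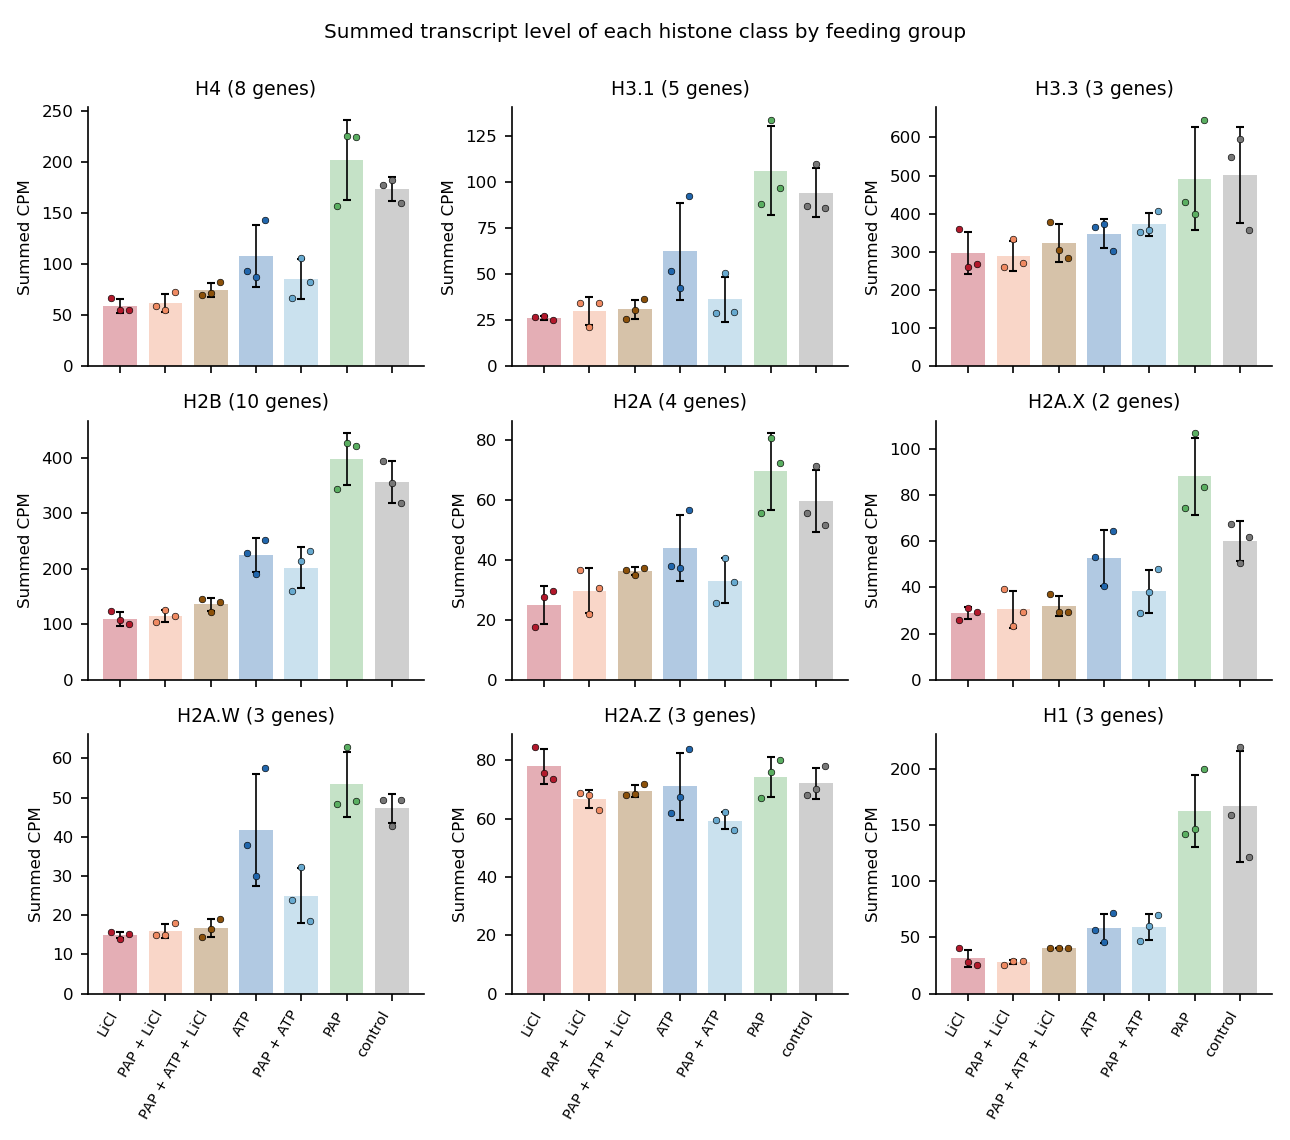
Bars are the mean summed CPM of each histone class in each group, error bars the SD and dots the 3 libraries. In LiCl leaves H3.1 and H4 are at 28.0% and 33.9% of control leaves, H1 at 18.8% and H3.3 at 59.2%, while H2A.Z is at 108%.

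The linker histones H1.1 and H1.2 are the main ones of Arabidopsis tissues, and H1.3 is a smaller form known to be induced by drought and low light. H1.1 had 14.05, 15.1 and 14.1 CPM in LiCl leaves, against 71.6, 108 and 65.8 CPM in control leaves, a log2 change of -2.43 ± 0.23 (adjusted p = 9.26e-06). H1.2 had 19.996, 11.3 and 10.2 CPM in LiCl leaves, against 71.2, 106 and 48.3 CPM in control leaves, a log2 change of -2.39 ± 0.32 (adjusted p = 0.00011). Both genes lay well below the control range in every LiCl library. H1.3 varied more, with 6.24, 1.69 and 1.39 CPM in LiCl leaves, against 16.2, 5.604 and 7.11 CPM in control leaves. LiCl library 10 lay inside the control range, and the log2 change was -1.60 ± 0.53 (adjusted p = 0.0469), a call that did not always hold with a library left out. In PAP + LiCl leaves H1.3 had 1.23, 2.42 and 0.961 CPM, against 8.68, 6.81 and 19.2 CPM in PAP leaves, without overlap (-2.50 ± 0.53, adjusted p = 0.00319). The H1 genes together were 31.4 ± 7.83 CPM in LiCl leaves and 167 ± 49.7 CPM in control leaves.

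**Figure D3:**
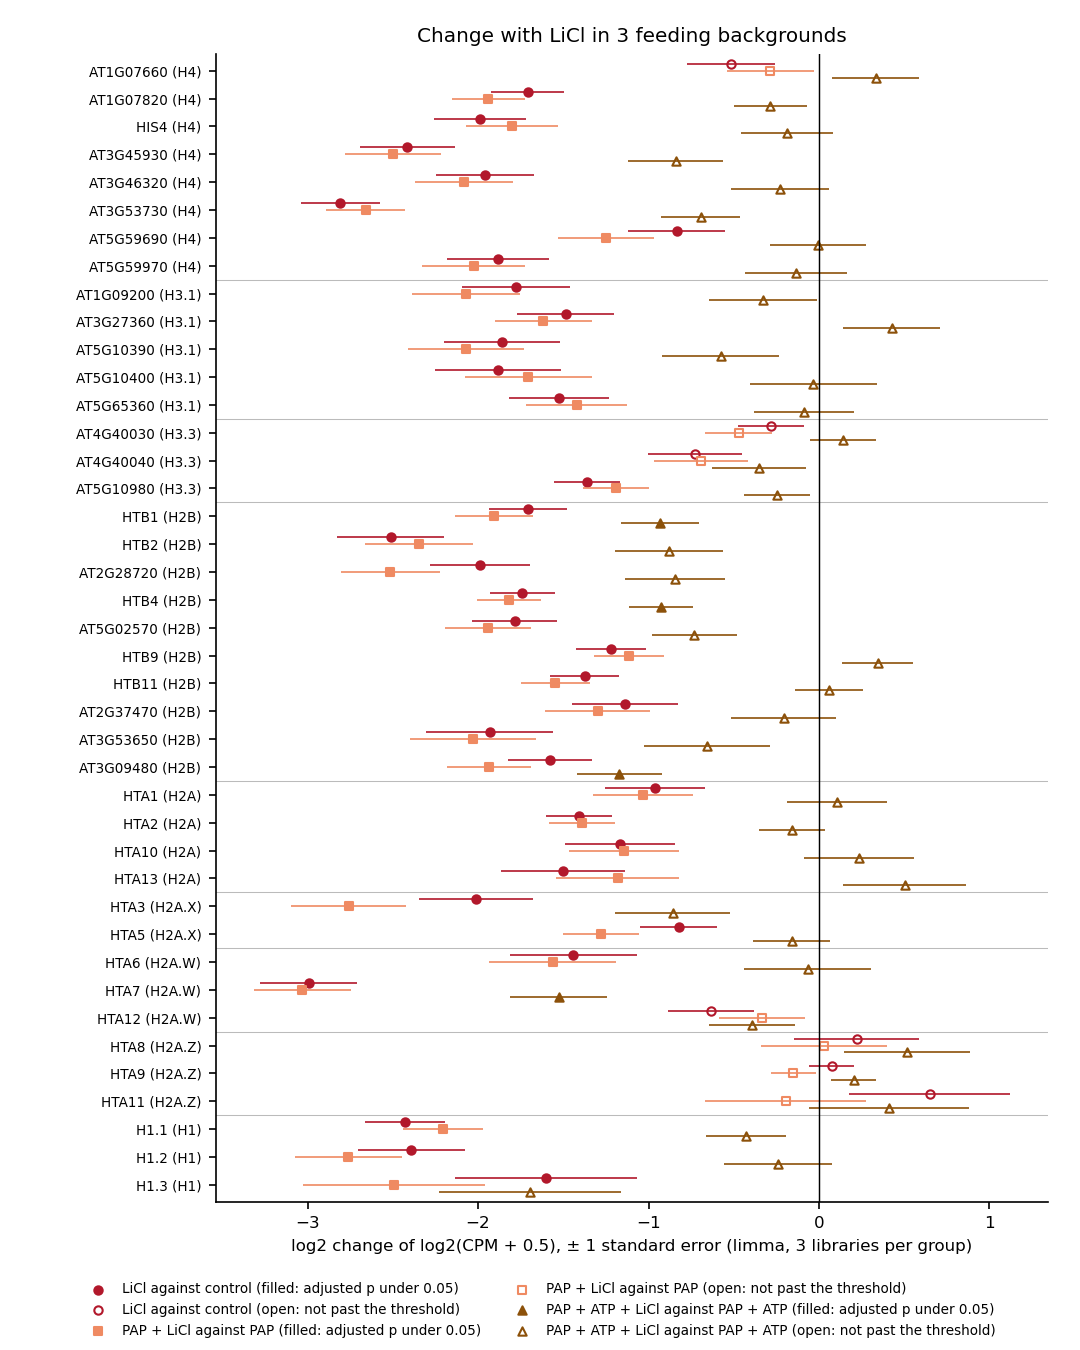
Points are the log2 change with LiCl on log2(CPM + 0.5) for each histone gene, with bars of 1 standard error, for LiCl against control, PAP + LiCl against PAP, and PAP + ATP + LiCl against PAP + ATP; filled points have an adjusted p under 0.05. In the first and second comparisons 34 of 41 are filled, and in the third 4.

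In PAP + LiCl leaves, set against PAP leaves, the single genes gave the following values. HTA7 had 1.18, 2.51 and 1.63 CPM in PAP + LiCl leaves, against 18.2, 19.6 and 15.1 CPM in PAP leaves (-3.03 ± 0.29, adjusted p = 6.06e-06). H1.1 had 15.8, 15.5 and 16.6 CPM in PAP + LiCl leaves, against 69.7, 76.2 and 80.98 CPM in PAP leaves (-2.21 ± 0.23, adjusted p = 1.44e-05), and H1.2 changed by -2.76 ± 0.32 (adjusted p = 2.46e-05). None of these groups overlapped. HTB4 had 49.8, 60.9 and 48.9 CPM in PAP + LiCl leaves, against 172, 187 and 207 CPM in PAP leaves (-1.82 ± 0.19, adjusted p = 1.24e-05). AT1G09200 (H3.1) had 6.55, 4.25 and 9.06 CPM in PAP + LiCl leaves, against 24.01, 36.1 and 26.1 CPM in PAP leaves (-2.07 ± 0.32, adjusted p = 0.000264). Both were again apart, while HTA9 (H2A.Z) overlapped, with 62.95, 63.5 and 55.9 CPM in PAP + LiCl leaves, against 61.6, 65.96 and 75.4 CPM in PAP leaves (-0.15 ± 0.13, adjusted p = 0.448). The 7 genes that did not pass here were the 7 that did not pass with LiCl against control.

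Because a sum in CPM moves with the rest of the library, classes were also set against each other within each library. These ratios are a description, without a test. The log2 ratio of the H3.1 and H4 sum to the H3.3 sum was -1.95, -1.66 and -1.75 in the LiCl libraries, against -1.06, -1.03 and -0.54 in the control libraries. The groups did not overlap, and the means were -1.79 ± 0.15 in LiCl leaves and -0.88 ± 0.29 in control leaves (SD, n = 3 each). Against H2A.Z the log2 ratio was 0.13 ± 0.01 in LiCl leaves and 1.89 ± 0.21 in control leaves, again apart. Against H1 it ran the other way, at 1.47 ± 0.22 in LiCl leaves and 0.72 ± 0.30 in control leaves, so the H1 sum was lower still than that of H3.1 and H4. Per kb of transcript, H3.1 was 11.9% ± 1.74 of H3.1 and H3.3 together in LiCl leaves and 21.8% ± 3.42 in control leaves (SD, n = 3 each). In PAP leaves this share was 24.3% ± 7.17, and in PAP + ATP leaves it was 12.7% ± 4.04.

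**Figure D4:**
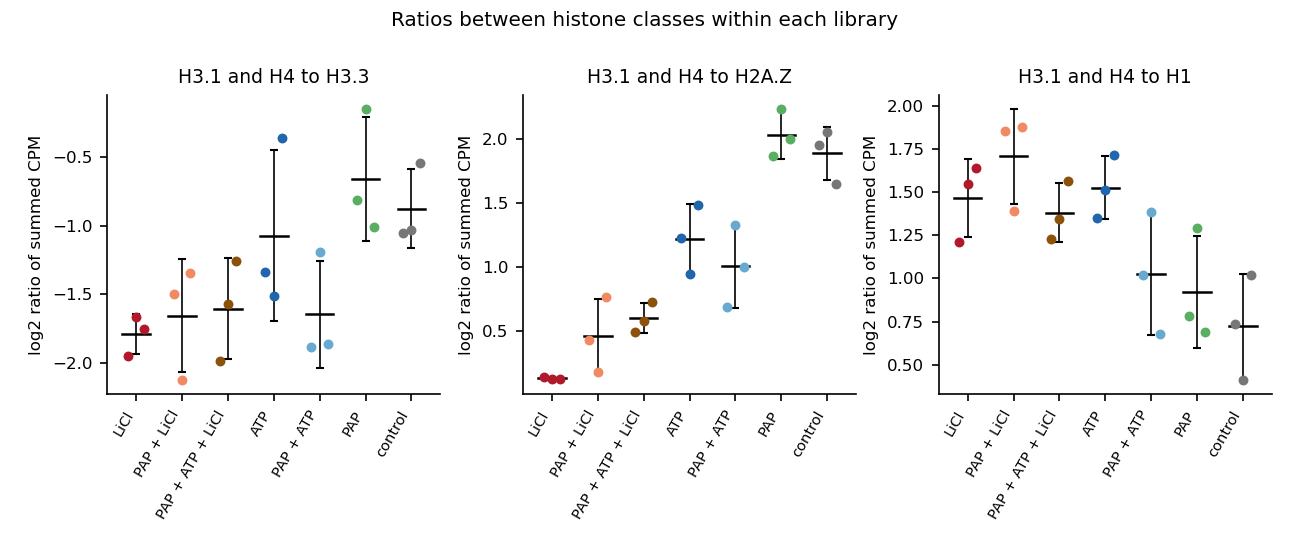
Dots are libraries and lines the group mean ± SD of the log2 ratio of the summed CPM of H3.1 and H4 to that of H3.3, H2A.Z or H1. The LiCl libraries lie below the control libraries against H3.3 and H2A.Z and above them against H1.

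With ATP against control, 9 of the 41 fell and 0 rose, where 5.46% of 17667 genes fell and 1.81% rose, and the median log2 change was -0.52, against -0.16 over all genes. The 9 were H1.1, H1.2, AT1G07820 (H4), AT5G10390 (H3.1), AT5G10980 (H3.3), AT2G28720, HTB4 and HTB9 (H2B) and HTA3 (H2A.X). Scaling by median of ratios moved the median of all genes to 0.04 and left 5 calls, with 5.06% of all genes called in either direction. The count was 2 without ATP library 5, 4 without ATP library 4 or control library 1 or 2, and 3 without libraries 4 and 20. The share of all genes called fell too, to 1.62% without ATP library 5 and 3.24% without ATP library 4. It was 4.44% and 3.0% without control libraries 1 and 2, and 2.17% without libraries 4 and 20, against 7.26% with all libraries. The calls that held with each library left out, though not under every processing, were H1.1 and H1.2. H1.1 had 27.98, 21.9 and 40.8 CPM in ATP leaves, against 71.6, 108 and 65.8 CPM in control leaves (-1.43 ± 0.23, adjusted p = 0.00356). H1.2 had 21.1, 14.5 and 25.1 CPM in ATP leaves, against 71.2, 106 and 48.3 CPM in control leaves (-1.83 ± 0.32, adjusted p = 0.00505). For both, every ATP library lay below every control library. H1.3 had 7.77, 9.23 and 5.84 CPM in ATP leaves, within the control range (-0.20 ± 0.53, adjusted p = 0.858). HTA7, lowest with LiCl, had 14.2, 11.9 and 21.1 CPM in ATP leaves, also across the control range (0.08 ± 0.29, adjusted p = 0.894). Whether the genes differ in their response to ATP was not tested.

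In PAP + ATP leaves 28 of 41 fell against PAP leaves, where 3.43% of 17673 genes fell, with a median log2 change of -1.13, against -0.03 over all genes. Against control leaves 16 fell, where 1.27% of genes did. The H3.1 and H4 sum was 121 ± 31.3 CPM in PAP + ATP leaves, 308 ± 58.2 CPM in PAP leaves and 267 ± 23.4 CPM in control leaves. AT1G09200 (H3.1) had 9.01, 15.04 and 7.61 CPM in PAP + ATP leaves, against 24.01, 36.1 and 26.1 CPM in PAP leaves, without overlap (-1.44 ± 0.32, adjusted p = 0.0201). HTA3 had 2.02, 3.37 and 7.35 CPM in PAP + ATP leaves, against 17.8, 24.3 and 18.5 CPM in PAP leaves, the largest of these changes (-2.27 ± 0.34, adjusted p = 0.00456). The 28 calls were 6 without PAP + ATP library 16, 9 without PAP library 8 and 0 in a fit of the compared groups alone. The 16 were 2 and 10 without control libraries 1 and 2, and 3 and 10 without PAP + ATP libraries 16 and 17. The share of all genes called in either direction was 0.215% and 2.4% without those control libraries. It was 0.351% and 0.345% without those PAP + ATP libraries, against 2.17% with all libraries. The interaction of PAP and ATP, which asks whether ATP acts differently with PAP, passed in 0 of 41 (13 had an unadjusted p under 0.05) and in 0.0% of 17605 genes. The share of all genes at that unadjusted level was not counted, so the 13 are not read further.

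LiCl given on top of PAP + ATP lowered 4 of the 41, where 4.84% of 17661 genes fell, and the median log2 change was -0.23, against 0.07 over all genes. The 4 were HTA7 (-1.53 ± 0.29, adjusted p = 0.00307), HTB1 (-0.93 ± 0.23, adjusted p = 0.0164), HTB4 (-0.93 ± 0.19, adjusted p = 0.00539) and AT3G09480 (adjusted p = 0.00694). AT3G09480 was near the floor, at 0.338, 0.18002 and 0.368 CPM in PAP + ATP + LiCl leaves, against 0.835, 1.504 and 1.62 CPM in PAP + ATP leaves, so no fold is read from it. The histone sum was 759.9 ± 51.7 CPM in PAP + ATP + LiCl leaves and 911 ± 101 CPM in PAP + ATP leaves. Against control leaves the sum in PAP + ATP + LiCl leaves was 49.6%. The change with LiCl was less negative, or more positive, with ATP present in 40 of 41 genes, by a median of 1.38 on the log2 scale, against 0.09 over all genes. Tested gene by gene as an interaction, 34 of 41 had an unadjusted p under 0.05. The share of all genes at that level was not counted, so the 34 are not read further. After adjustment 1 of 41 passed, where 1 of all 17541 genes (0.0057%) passed in that direction. That gene was AT3G53730 (H4), at 1.97 ± 0.33 (adjusted p = 0.0499). It had 9.68, 8.64 and 10.4 CPM in PAP + ATP + LiCl leaves, against 12.05, 16.7 and 19.4 CPM in PAP + ATP leaves. The gap is clear but smaller than that between its PAP + LiCl and PAP libraries given above. The call was lost in 10 of the 12 fits that left out a library of these 4 groups, and without libraries 4 and 20 no gene of the 41 passed. The 4 genes lower in PAP + ATP + LiCl leaves were 2 without those libraries. By contrast, ATP on top of PAP + LiCl changed 0 of 41, where 0.113% of 17638 genes changed. An unadjusted p under 0.05 was met by 4, a level not counted over all genes. Of the 41 log2 changes there 34 were positive, with a median of 0.19, against 0.05 over all genes.

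**Figure D5:**
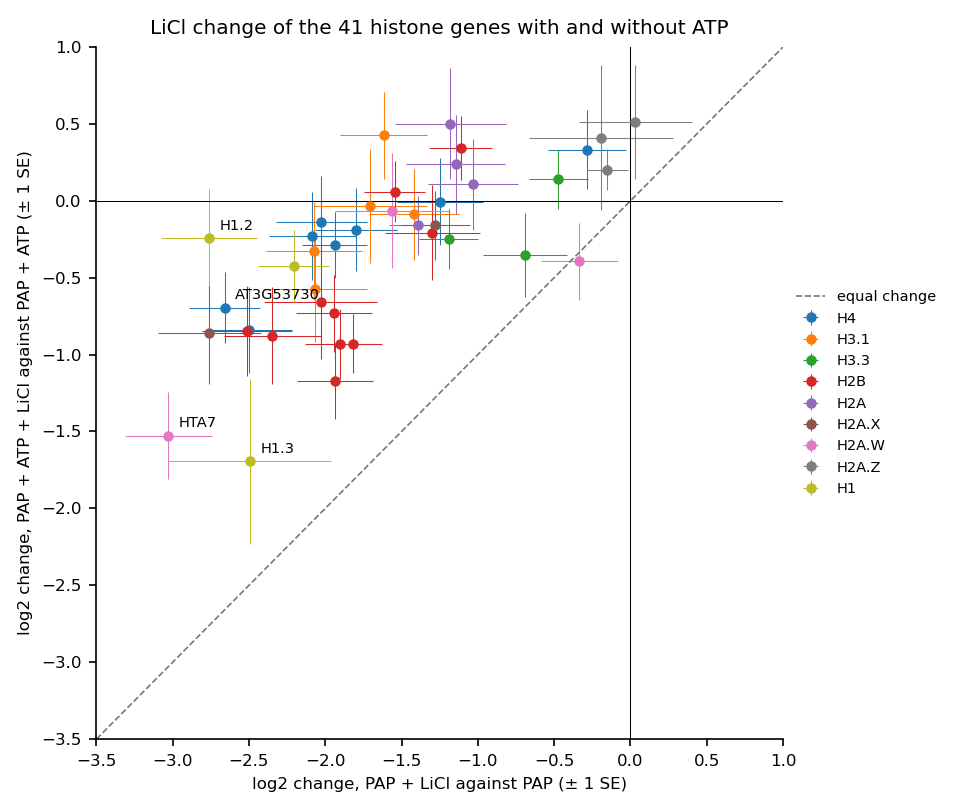
Each dot is a histone gene, with its log2 change for PAP + LiCl against PAP on x and for PAP + ATP + LiCl against PAP + ATP on y; the dashed line marks equal changes. In 40 of 41 genes the dot lies above the line.

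PAP alone changed no histone gene past the threshold (0 of 41, 1 at an unadjusted p under 0.05), and 0.0% of all 17657 genes were called in either direction by limma. Of the 41 log2 changes 34 were positive, with a median of 0.17, against -0.05 over all genes. In 5 of the 41 every PAP library lay above every control library, as in 2.72% of all genes. HTA3 had 17.8, 24.3 and 18.5 CPM in PAP leaves, against 15.6, 12.2 and 13.4 CPM in control leaves (0.54 ± 0.34, adjusted p = 0.984). HTA5, the other H2A.X gene, had 56.7, 82.4 and 64.9 CPM in PAP leaves, against 52.1, 38.3 and 48.6 CPM in control leaves (0.54 ± 0.22, adjusted p = 0.984). In both the PAP libraries lay above the control libraries, yet neither change passed. PAP given with LiCl against LiCl alone passed in 0 of 41 (0 at an unadjusted p under 0.05), and PAP + ATP against ATP in 0 of 41 (12 at an unadjusted p under 0.05). The background was 0.0% in each of these. The share of all genes at an unadjusted p under 0.05 was not counted for the PAP comparisons. Their direction was not the same. With PAP + ATP against ATP 33 of the 41 log2 changes were negative, with a median of -0.42, against 0.11 over all genes. With PAP + LiCl against LiCl 25 were positive, with a median of 0.05, against -0.06 over all genes.

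Taking the 3 backgrounds together, the pooled LiCl effect lowered 36 of 41, where 21.5% of 17458 genes fell. The added genes were AT4G40040 (-0.59 ± 0.16, adjusted p = 0.00647) and HTA12 (-0.45 ± 0.15, adjusted p = 0.0188), and HTA12 did not pass without libraries 4 and 20. The pooled ATP effect lowered 20 of 41 (background 9.17%), and 11 without libraries 4 and 20. It averages 3 backgrounds, and with ATP on top of PAP + LiCl 34 of the 41 log2 changes were positive. The pooled PAP effect and the interaction of PAP and LiCl called 0 of 41 and 0.0% of all genes. In the pooled PAP effect 30 of the 41 log2 changes were negative, with a median of -0.05, against -0.0009 over all genes.

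In the pooled LiCl effect 3508 of all 17458 genes rose and 3747 (21.5%) fell, and the counts of the lists that follow are to be read against these shares. Of 23 tested genes for DNA replication and S phase, 3 rose and 2 fell in the pooled LiCl effect, with a median log2 change of 0.13 against 0.01 over all genes; both counts lie below those shares. RNR2A, a subunit of ribonucleotide reductase, changed by -1.38 ± 0.14 (adjusted p = 1.08e-06), and E2FC, a repressing E2F factor, by -0.86 ± 0.13 (adjusted p = 6.53e-05). CYCD3;1, a cyclin of the G1 phase, changed by 1.61 ± 0.25 (adjusted p = 7.1e-05). Of 17 histone chaperones 4 fell, near the share of all genes, and 0 rose. NAP1;3 and NAP1;2, which carry H2A and H2B, changed by -0.40 ± 0.12 (adjusted p = 0.0141) and -0.37 ± 0.12 (adjusted p = 0.0212), and NRP2, a related chaperone, by -0.65 ± 0.24 (adjusted p = 0.0368). Of 6 genes for H2A.Z exchange 1 rose, also near the share of all genes: SWC2 of the SWR1 complex (0.83 ± 0.27, adjusted p = 0.0198). In ATP against control none of these lists had a gene past the threshold.

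The labelled leaf tissue was checked by its markers. The 5 mesophyll genes were abundant, at 27875 to 46186 CPM summed in the LiCl libraries and 21072 to 39554 CPM in the control libraries. The 13 markers of dividing cells were near the floor, at 5.57, 12.6 and 11.8 CPM summed in the LiCl libraries and 5.33, 5.85 and 13.9 CPM in the control libraries. Of the 13, 12 had values in LiCl leaves and 10 in control leaves. Of the 6 that could be tested 0 changed with LiCl. In the pooled LiCl effect, where 3508 of 17458 genes rose and 21.5% fell, 2 of 5 mesophyll markers rose, RCA (0.70 ± 0.23, adjusted p = 0.0212) and CAB3 (0.75 ± 0.29, adjusted p = 0.0486), and 0 of 4 guard cell markers changed. Of 3 epidermal markers CER6, which elongates wax fatty acids, fell (-1.67 ± 0.20, adjusted p = 4.12e-06); the list summed to 298 to 328 CPM in the LiCl libraries and 406 to 953 CPM in the control libraries. Of 4 vascular markers 2 rose, SUC2 (0.99 ± 0.14, adjusted p = 2.91e-05) and APL (0.50 ± 0.15, adjusted p = 0.0124), and 2 fell, among them SWEET11 (-0.67 ± 0.22, adjusted p = 0.0232). With ATP against control SUC2 rose (1.01 ± 0.24, adjusted p = 0.0212) and SWEET11 fell (-1.32 ± 0.39, adjusted p = 0.0476). The part of these marker changes in the histone results was not tested.

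Because H1.3 is known as a drought-induced histone, 9 genes of water deficit were set beside it. In the pooled LiCl effect 5 of the 9 fell and 1 rose, where 21.5% of all genes fell and 3508 of 17458 rose, while H1.3 changed by -1.93 ± 0.31 (adjusted p = 9.6e-05). RD22 and COR15A, both induced by drought, changed by -1.15 ± 0.18 (adjusted p = 9.07e-05) and -1.48 ± 0.32 (adjusted p = 0.00128). NCED3, the enzyme that limits abscisic acid synthesis, changed by 1.17 ± 0.26 (adjusted p = 0.00148). With LiCl against control alone 0 of the 9 passed.

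Over the 21 libraries, 13832 other genes with at least 1 CPM throughout were ranked by Pearson correlation with the mean log2(CPM + 0.5) of the 13 H3.1 and H4 genes. The libraries share the 7 groups, so the coefficients are a description. The most alike was NPQ6 (AT5G43050, r = 0.93), named for non-photochemical quenching, with mean levels of 6.74 CPM in LiCl leaves and 17.2 CPM in control leaves. AT4G08940 (r = 0.91), AT5G07670, AT3G07230 and AT1G15710 followed. None of the first 5 is in the replication or chaperone lists. The markers of dividing cells together summed to only 4.46 CPM in PAP library 9, so most missed the 1 CPM needed to be ranked. Their absence among the first 5 is therefore not read. Most like H1.3 were AT1G08230 and CYP89A5 (r = 0.96 each), a cytochrome P450, followed by AT5G18130, FBP7 and AT1G67360.

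Histone genes fell with and without the octamer. With LiCl against control, 8 of the 10 histone genes with it and 26 of the 31 without it fell. Their median log2 changes were -1.47 and -1.71. Of the 19 tested other genes with the octamer 4 fell and 2 rose, with a median of -0.09. Over all 17587 genes tested 10.4% fell and 7.27% rose, with a median of -0.03. Among the stretches printed above, AT1G07660 and AT4G40040 hold the octamer and did not pass, while AT3G53730 holds none of these motifs and had the lowest value of the H4 genes. The 6 letters CGGATC, which end the octamer, stood before 16 of the 41 histone genes, 6 of them H4, against 3.88% of all genes. Some histone genes counted as without the octamer therefore hold this part of it.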

How the data were processed

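Per the submitters' processing notes, reads were processed with Subread and featureCounts on TAIR10; versions and settings are not given in the sources used here. The authors deposited CPM (each gene's reads scaled to its library's total) per gene; with steps of 1 read, 100% of values came out as whole reads (tolerance 1e-06). Columns name the group but no replicate. The 41 members and all lists were chosen with earlier results of these data known.

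Genes with at least 1 CPM in 3 libraries (17794) were fitted with limma 3.58.1 (R 4.3.3) on log2(CPM + 0.5), with 1 mean per group over all 21 libraries, a mean-variance trend, two-sided tests and Benjamini-Hochberg adjustment over all genes of each of 20 comparisons, at 0.05. Fold changes are on that scale, which understates low genes. Pooled effects average 3 backgrounds. The fit was tested on simulated data for LiCl against control only, not for pooled effects, interactions or the F test. Alternatives were pseudocounts of 0.1 and 2, no filter, a mean of at least 5 CPM, median-of-ratios scaling, fits of the compared groups alone, edgeR 4.0.16 and DESeq2 1.42.0 on the recovered reads, and each library left out. Leaving out libraries 4 and 20 together was chosen after seeing the data.

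All 41 members could be named; from each list at most the 3 genes with the smallest p, and the 5 genes most like each of 2 profiles. Of 89 list genes 87 were in the table. Class sums, ratios and sequence matches (Biopython 1.88, RefSeq TAIR10.1, 250 upstream bases) are descriptions.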

Additional observations from a re-analysis of the deposited data

Results flagged for a closer look

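AT3G53730, an H4 gene, differed in its response to LiCl between PAP + ATP and PAP leaves, by the interaction term of the limma fit. The log2 change with LiCl was -0.69 ± 0.23 with ATP and -2.66 ± 0.23 without it, a difference of 1.97 ± 0.33 (1.97, adjusted p = 0.0499). Its control and PAP libraries lay between 33.02 and 61.6 CPM. Over the 12 fits that each left out 1 library of the 4 groups the difference was 1.75 to 2.19 and the adjusted p 0.0204 to 0.154, and 10 of them missed the threshold.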

How the results depend on the processing

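No paired analysis was possible because the columns carry a group but no replicate number of the labels. Each library left out in turn gave 30 to 33 calls for LiCl against control, 26 to 31 for PAP + LiCl against control and 22 to 28 for PAP + ATP + LiCl against control. It gave 31 to 34 for PAP + LiCl against PAP, 3 to 6 for PAP + ATP + LiCl against PAP + ATP, 36 for the pooled LiCl effect and 33 to 35 for the F test (34 of 41, background 35.6%). Counts with ATP ranged more widely. ATP against control ranged between 2 (without library 5, 1.62% of all genes called) and 12 (without 6, 5.45%). ATP against PAP (10, background 3.43%) ranged between 1 (without 5) and 17 (without 6), with 5 without library 8 or 9. The pooled ATP effect ranged between 14 (without 5) and 25 (without 6). PAP + ATP against control ranged between 2 (without control library 1, 0.215% of all genes called) and 17 (without 18, 7.13%). PAP + ATP against PAP ranged between 6 (without 16) and 24 (without 18). The interaction of ATP and LiCl ranged between 0 and 4 (without 18), with 2 without 7 and 0 without any other of its 12 libraries. The ratios of H3.1 and H4, LiCl minus control, ranged between -1 and -0.74 to H3.3, -1.88 and -1.68 to H2A.Z, and 0.59 and 0.90 to H1.

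A fit of the compared groups alone, which uses fewer libraries, gave 0 for PAP + ATP against PAP, ATP against PAP and the interaction of ATP and LiCl. It also gave 0 for ATP against control (0.0736% of all genes called) and PAP + ATP against control (0.0%). Without libraries 4 and 20 ATP against control gave 3, ATP against PAP 4, the pooled ATP effect 11, PAP + ATP + LiCl against PAP + ATP 2, PAP + ATP + LiCl against control 22 (28 with them) and the interaction 0. Median-of-ratios scaling gave 5 for ATP against control and 7 for the interaction. With edgeR these were 5 and 5, and PAP + ATP + LiCl against PAP + ATP gave 9. DESeq2 gave 11 for the last, 13 for the interaction of ATP and LiCl, 2 for that of PAP and ATP and 1 for PAP + ATP against ATP. Over all genes the interaction of ATP and LiCl had 7 rising and 14 falling calls of 17541 with median-of-ratios scaling. The calls were 5 and 13 of 17440 with edgeR and 31 and 90 of 17432 with DESeq2, against 1 and 4 of 17541 in the limma fit without that scaling. A mean of at least 5 CPM gave 10 for PAP + ATP against control. The interaction gave 0 and 4 with pseudocounts of 0.1 and 2, and 2 with no filter. The mean of log2 values in place of sums gave -2.06 for the ratio to H2A.Z and 0.40 for that to H1. The cause of these differences was not tested.

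Over all genes, scaling by median of ratios moved the median log2 change of ATP against control to 0.04, against -0.16. Rising and falling calls were then 493 and 401, against 319 and 964. PAP + LiCl against control gave 1438 and 1432, against 981 and 1781. PAP + ATP against control gave 309 and 176, against 159 and 224. The pooled ATP effect gave 1557 and 1344, against 1033 and 1603. ATP against PAP gave 497 and 492, against 282 and 606. Of 7788 values of single members under an alternative, 7336 kept their side of the threshold, 365 lost the call, 87 gained it and 0 reversed a call. Of the values 167 changed sign, none of them as a reversed call. Depth limits the lowest members, such as AT5G02570 at a few reads per LiCl library. The edgeR test on recovered reads called 3168 genes for LiCl against control, and limma 3102.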

Other observations

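ATP library 6 and PAP library 8 were the highest of their groups in several summed levels. The H3.1 sum was 92.1 CPM in ATP library 6, against 51.9 and 42.7 CPM in the other ATP libraries. It was 134 CPM in PAP library 8, against 87.8 and 96.7 CPM in the other PAP libraries. The 25 genes for DNA replication and S phase summed to 211 CPM in ATP library 6, against 118 CPM in each of the other ATP libraries. They summed to 231 CPM in PAP library 8, against 119 and 102 CPM in the other PAP libraries. HTA11, an H2A.Z gene, was also highest there, at 10.9 CPM in ATP library 6 and 7.77 CPM in PAP library 8.

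The overlapping pair AT5G02570 (H2B) and HTA12 (H2A.W) gave different values although their reads cannot be told apart by strand. AT5G02570 had 0.0422, 0.0787 and 0.1504 CPM in LiCl leaves, against 1.81, 1.62 and 1.201 CPM in control leaves, and HTA12 had 4.89, 3.34 and 4.78 CPM in LiCl leaves, against 8.29, 6.09 and 6.56 CPM in control leaves.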
